A study of Homo sapiens with 30 samples.

Results

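The genes described here are 10 imprinted genes out of 68608 distinct genes in the deposited tables. They are DLK1, MEG3, MEG8 and MEG9 of the 14q32 domain, H19, IGF2, KCNQ1OT1 and CDKN1C of the 11p15 domains, and PEG3 and PEG10, which lie elsewhere in the genome. They were chosen by name, and each was found in all 3 tables. Their RNA was measured by sequencing in 3 established neuroblastoma cultures (NGP, SK-N-BE(2)c and IMR32) after lipofection of an antisense oligonucleotide (ASO) at 100 nM. An ASO is a short synthetic strand that pairs with an RNA and can lead to its loss. The NESPR ASOs target NESPR, a long non-coding RNA that the series names as specific to adrenergic neuroblastoma cells, and the control was a negative control ASO called NCA. IMR32 received ASO1, ASO2 or NCA with 4 libraries each, while SK-N-BE(2)c and NGP received ASO2, ASO10 or NCA with 3 libraries each. The lines are single established cultures, the time from transfection to harvest is not given in the sources used here, and the level of NESPR itself was not analysed here.

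An imprinted gene is transcribed mainly from the copy inherited from one parent, because a control region near it carries DNA methylation on only one parental copy. At 14q32, DLK1 is transcribed from the paternal copy and encodes a membrane protein that can modulate Notch signalling. MEG3, MEG8 and MEG9 are non-coding RNAs transcribed from the maternal copy in the same direction, in a stretch that also holds many small nucleolar RNAs and microRNAs. At 11p15, H19 (a maternal non-coding RNA) and IGF2 (a paternal growth factor) share enhancers and a control region that binds CTCF. In the neighbouring domain, KCNQ1OT1 is a paternal non-coding RNA that silences CDKN1C, a maternal inhibitor of cyclin-dependent kinases. PEG3 encodes a zinc finger protein and PEG10 a protein derived from a retrotransposon, both from the paternal copy. DLK1 is known as a gene of sympathoadrenal cells and neuroblastoma. The files give gene totals, so the 2 parental copies were not told apart.

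RefSeq promoter entries (GRCh38.p14, from 250 bases before the start of transcription to 50 after it) were at hand for 3 of the 10 genes. They are shown because no other member had an entry, and no relation of their letters to the changes in RNA was tested. The capitals mark the motifs found.
MEG3: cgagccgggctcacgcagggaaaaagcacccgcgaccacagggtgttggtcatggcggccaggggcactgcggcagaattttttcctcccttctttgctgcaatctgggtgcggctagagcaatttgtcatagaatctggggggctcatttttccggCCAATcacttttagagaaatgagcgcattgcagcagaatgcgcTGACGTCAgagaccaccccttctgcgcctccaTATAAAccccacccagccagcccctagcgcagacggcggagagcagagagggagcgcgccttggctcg
MEG9: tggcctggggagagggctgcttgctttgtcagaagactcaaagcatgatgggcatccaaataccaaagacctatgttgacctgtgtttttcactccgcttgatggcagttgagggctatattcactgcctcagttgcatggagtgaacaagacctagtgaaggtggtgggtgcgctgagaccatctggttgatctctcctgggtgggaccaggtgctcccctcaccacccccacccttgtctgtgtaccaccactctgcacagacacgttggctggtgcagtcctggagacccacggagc
H19: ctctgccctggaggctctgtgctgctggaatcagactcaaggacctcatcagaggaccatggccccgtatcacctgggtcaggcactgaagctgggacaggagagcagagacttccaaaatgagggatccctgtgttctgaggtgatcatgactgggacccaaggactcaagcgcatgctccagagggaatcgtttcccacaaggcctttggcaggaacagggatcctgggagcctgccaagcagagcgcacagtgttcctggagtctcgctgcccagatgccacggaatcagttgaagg
The MEG3 window is chr14:100825858-100826157 on the plus strand, the most upstream of 3 starts listed. The MEG9 window is chr14:101069661-101069960 on the plus strand, and the H19 window is chr11:2001217-2001516 on the minus strand. Each window was searched on both strands for the letters CCAAT, for a TATA box (TATAAA), a cAMP response element (TGACGTCA), a GC box (GGGCGG) and an E-box (CACGTG), none of which overlapped another. The MEG3 window held CCAAT at 93 to 89, TGACGTCA at 50 to 43 and TATAAA at 18 to 13 bases before the start. The MEG9 and H19 windows held none of these letters. Of 35116 RefSeq promoters of this length, 1.85% held TGACGTCA, 11.5% TATAAA, 34.6% CCAAT, 45.0% GGGCGG and 7.26% CACGTG. The MEG3 window had 59.0% G and C with 19 CpG pairs, against 55.3% and 4 pairs for MEG9 and 57.7% and 6 pairs for H19.

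The reads recovered for each library from the deposited normalized counts numbered 11497829 to 15060356 for SK-N-BE(2)c, 11591178 to 13795561 for NGP and 9393587 to 13932379 for IMR32. The first 2 lines had been scaled together, so their levels can be set side by side, whereas IMR32 had been scaled on its own. The 9 adrenergic neuroblastoma markers summed here, among them HAND2 and DBH, each had a mean of at least 10 normalized counts in each line. In NGP their summed level was 39581 to 41197 with NCA, 36549 to 37949 with ASO2 and 29626 to 30639 with ASO10. For SK-N-BE(2)c it was 32791 to 36635, 30873 to 33017 and 28185 to 29548 in that order, and for IMR32 it was 23319 to 24219 with NCA against 20696 to 23087 with the 2 NESPR ASOs. The 6 fibroblast markers summed to 1095 to 1147 with NCA, 1146 to 1227 with ASO1 and 1354 to 1479 with ASO2 in IMR32. In NGP they summed to 472 to 504 with NCA, 821 to 864 with ASO2 and 430 to 537 with ASO10, and in SK-N-BE(2)c to 376 to 393, 609 to 693 and 319 to 362. The 10 mesenchymal markers, of which 4 (SK-N-BE(2)c), 6 (NGP) and 7 (IMR32) averaged 10 or more, summed to 4437 to 5142, 4049 to 4780 and 4911 to 5353 in IMR32 with NCA, ASO1 and ASO2. With NCA, ASO2 and ASO10 they summed to 11473 to 11639, 14701 to 15652 and 12369 to 13135 in NGP and to 3491 to 3680, 4483 to 4612 and 4129 to 4358 in SK-N-BE(2)c. The 4 Schwann cell markers summed to 40.8 to 67.4 in SK-N-BE(2)c, where 2 averaged 10 or more and SOX10 was at 0. They summed to 5.92 to 19.5 in NGP and 62.5 to 87.2 in IMR32, with 1 averaging 10 or more in each. Of the 10 mesenchymal markers, YAP1 was at 0 in NGP. The part of these shifts in the results was not tested. The replicate 1 libraries of IMR32 deviated together from their group means, with correlations over genes of 0.26 to 0.33 between groups, so IMR32 results are also given without them where that changes a call. For SK-N-BE(2)c and NGP the name of control replicate 1 is spelled otherwise than those of replicates 2 and 3, and the labels do not settle whether its oligonucleotide differed. Each library is a bulk sample, so a change in the share of cells that express a gene and a change in RNA per cell cannot be told apart.

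The control levels of several imprinted genes differed widely between NGP and SK-N-BE(2)c, and the order of the genes differed among the lines. IMR32 was scaled on its own, so its levels are ranked within it. Values are means of normalized counts, first per kilobase of exon so that genes can be ranked within a line. In IMR32 the order was PEG10 at 253 per kb, MEG3 at 213, KCNQ1OT1 at 104, MEG8 at 85.2, H19 at 73.5, CDKN1C at 62.8, MEG9 at 49.3, DLK1 at 18.3, IGF2 at 6.56 and PEG3 at 2.65. NGP was led by H19 at 9056 per kb, far above PEG10 at 1272, IGF2 at 377, MEG3 at 277 and DLK1 at 118. Below these in NGP came PEG3 at 74.4, CDKN1C at 29.1, MEG9 at 23.8, MEG8 at 4.07 and KCNQ1OT1 at 3.97 per kb, and the last pair did not differ beyond its spread. SK-N-BE(2)c was led by DLK1 at 1642 per kb, followed by PEG10 at 1039, MEG3 at 616, IGF2 at 409 and MEG9 at 125. MEG8 stood at 12.3, H19 at 8.15 and KCNQ1OT1 at 2.51 per kb there, while CDKN1C at 0.552 and PEG3 at 0.279 were near the level of single reads. Between the 2 lines scaled together, H19 held 26235 ± 1383 normalized counts (SD, n = 3) in NGP control libraries and 23.6 ± 6.35 (SD, n = 3) in SK-N-BE(2)c ones. PEG3 held 727 ± 78.7 and 2.72 ± 2.22, and CDKN1C 72.0 ± 9.96 and 1.37 ± 1.61. DLK1 went the other way, with 8725 ± 1036 in SK-N-BE(2)c control libraries and 628 ± 23.9 in NGP ones. IGF2 held 2856 ± 247 and 2635 ± 67.0 in the same order of lines.

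**Figure D1:**
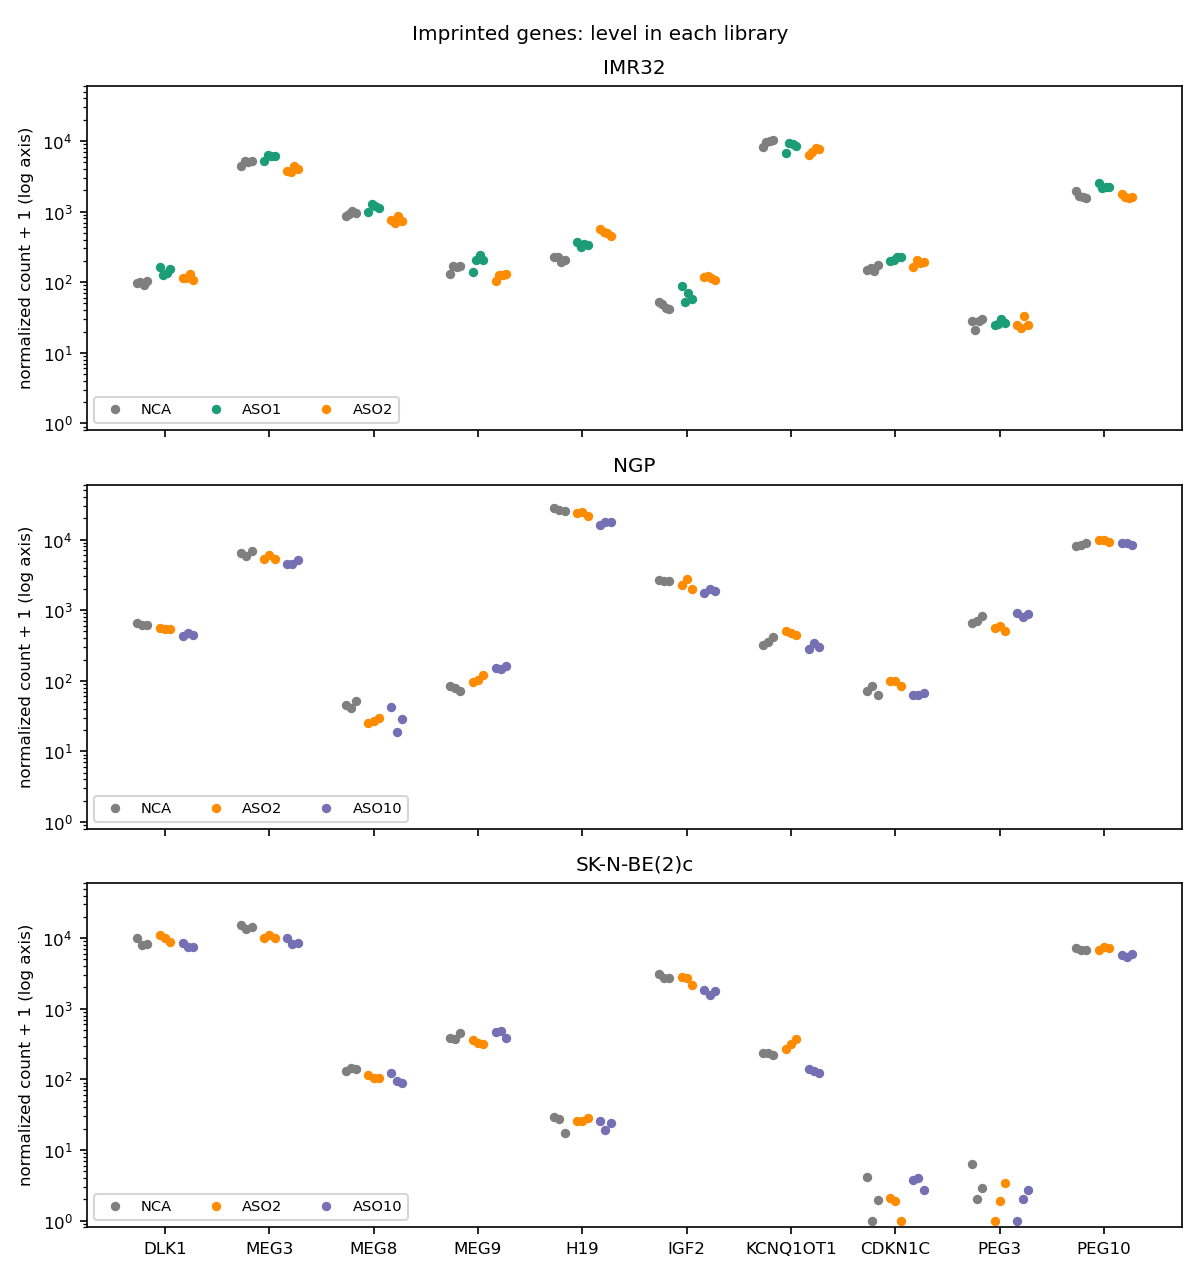
Normalized counts (plus 1, log axis) of the 10 imprinted genes in every library, by line and ASO group, each point 1 library. H19 was at 16249 or more in every NGP library and at 28.3 or less in every SK-N-BE(2)c library, while MEG3 was at 3668 or more in all 30 libraries.

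Each ASO group was compared with NCA of its line by limma on log2(normalized count + 1), with p-values adjusted over all genes tested. In IMR32, 7 of 10 imprinted genes were called with ASO1 (7 higher, 0 lower) against 28.0% of all genes tested (13.6% higher, 14.4% lower), and 7 of 10 with ASO2 (3 higher, 4 lower) against 32.4% (17.6% and 14.8%). In NGP, 8 of 10 were called with ASO2 (3 higher, 5 lower) against 58.7% of all genes (30.6% and 28.1%), and 8 of 10 with ASO10 (2 higher, 6 lower) against 54.4% (26.8% and 27.6%). In SK-N-BE(2)c, where CDKN1C and PEG3 were too low to test, 5 of 8 were called with ASO2 (2 higher, 3 lower) against 67.0% (33.6% and 33.4%), and 5 of 8 with ASO10 (0 higher, 5 lower) against 58.9% (27.8% and 31.1%). The share of called genes in SK-N-BE(2)c was thus near the share of all genes. The median log2 difference of the genes tested was 0.36 and -0.05 in IMR32 with ASO1 and ASO2, -0.17 and -0.35 in NGP with ASO2 and ASO10, and -0.07 and -0.37 in SK-N-BE(2)c. The median of all genes lay between -0.03 and 0.01 in these 6 comparisons. MEG3 and MEG8 were called in 6 of 6 comparisons, each time with the same sign as each other: higher with ASO1 in IMR32 and lower in the other 5. No other member was called in all 6, and the 2 comparisons in each line share their control libraries.

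**Figure D2:**
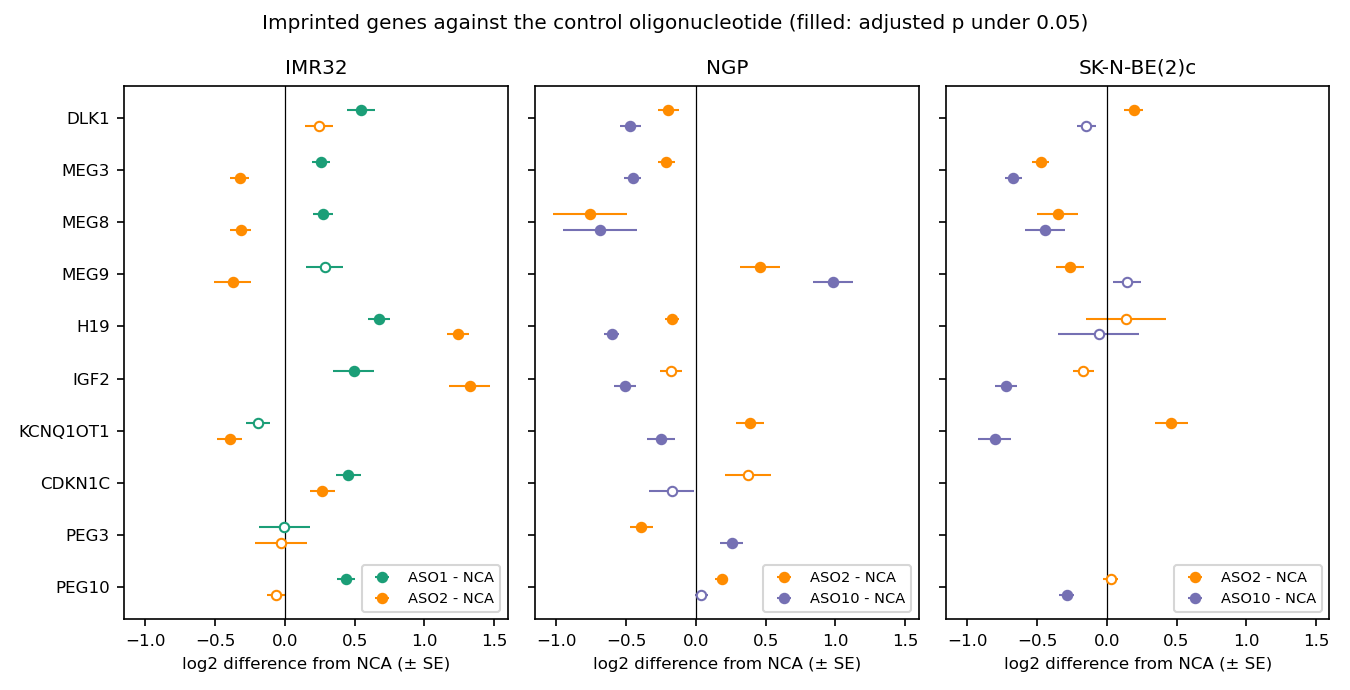
Log2 difference from NCA for each imprinted gene and ASO group, with its standard error from limma, by line (called results are filled). In the panels MEG3 and MEG8 lie above 0 with ASO1 in IMR32 and below 0 in the other 5 comparisons, and the highest values are those of IGF2 (1.32) and H19 (1.24) with ASO2 in IMR32.

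MEG3, the non-coding RNA that gives the domain part of its name, was lower than in NCA in 5 of 6 comparisons and higher in 1. In IMR32 its normalized counts were 4411, 5124, 5095 and 5162 with NCA, 5174, 6245, 6185 and 6065 with ASO1, and 3765, 3668, 4348 and 4011 with ASO2. All ASO1 libraries were above and all ASO2 libraries below the control libraries, and replicate 1 was the lowest library with NCA and with ASO1. The log2 difference was 0.26 ± 0.066 (SE) with ASO1 (adjusted p = 0.00578) and -0.33 ± 0.066 with ASO2 (adjusted p = 0.000852). In NGP the counts were 6454, 5924 and 6912 with NCA, 5227, 6068 and 5356 with ASO2, and 4480, 4552 and 5045 with ASO10. One ASO2 library overlapped the controls, and the ASO10 libraries lay below both other groups. The differences were -0.21 ± 0.0611 (adjusted p = 0.00444) and -0.45 ± 0.0611 (adjusted p = 8e-07). MEG3 in SK-N-BE(2)c fell from 15254, 13259 and 14405 to 9963, 10989 and 9932 with ASO2 and to 10030, 8326 and 8658 with ASO10. Neither NESPR ASO group overlapped the controls there. These are 1.39-fold and 1.59-fold decreases (log2 -0.47, adjusted p = 9.96e-08, and -0.67, adjusted p = 2.75e-10). Each of these MEG3 calls was kept under every alternative that was run.

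MEG8, a non-coding RNA downstream of MEG3 that hosts small nucleolar RNAs, moved with MEG3 in IMR32. Its counts there were 870.7, 921.5, 1024 and 969.2 with NCA, 992.9, 1261, 1207 and 1129 with ASO1, and 755.2, 696.8, 852.4 and 734.8 with ASO2. The ASO2 libraries were all below the controls, and 1 ASO1 library overlapped them. On the log2 scale the differences were 0.27 ± 0.073 (adjusted p = 0.00738) and -0.32 ± 0.073 (adjusted p = 0.00238). The ratio of MEG8 to MEG3 counts in IMR32 was 0.191 ± 0.00954 with NCA, 0.194 ± 0.00658 with ASO1 and 0.192 ± 0.00756 with ASO2 (SD, n = 4), and the 3 groups overlapped in this ratio. In NGP it was 0.00702 ± 0.000356 with NCA, 0.00475 ± 0.000596 with ASO2 and 0.00626 ± 0.00276 with ASO10 (SD, n = 3). There the ASO2 ratios lay below the controls without overlap. The SK-N-BE(2)c ratios were 0.0096 ± 0.00122, 0.0104 ± 0.000974 and 0.0112 ± 0.00091 in that order, and the groups overlapped. MEG8 counts were low in the other lines. NGP libraries held 44.6, 39.9 and 51.3 with NCA, 24.1, 25.7 and 28.9 with ASO2, and 41.8, 18.1 and 27.6 with ASO10. ASO2 lay below the controls without overlap, whereas 1 ASO10 library was among them. Against NCA the log2 differences were -0.76 ± 0.266 (adjusted p = 0.0167) and -0.69 ± 0.266 (adjusted p = 0.0316). Both NGP calls were lost under several alternatives. For ASO2 the adjusted p was 0.0507 with no filter, 0.0526 without ASO2 replicate 1 and 0.0559 without NCA replicate 3. For ASO10 it was 0.0879 with DESeq2, 0.0752 with no filter, 0.228 without ASO10 replicate 2 (log2 -0.40), 0.0597 without ASO10 replicate 3, 0.068 without NCA replicate 1 and 0.0938 without NCA replicate 3. SK-N-BE(2)c libraries held 128.7, 144.2 and 136.9 with NCA, 113.8, 104.2 and 102 with ASO2, and 120.9, 93.1 and 88.6 with ASO10. Both NESPR groups lay below the controls. Their log2 differences were -0.35 ± 0.145 (adjusted p = 0.033) and -0.45 ± 0.145 (adjusted p = 0.00983). The ASO2 call was lost without ASO2 replicate 2 (0.0768) or 3 (0.0831) and without NCA replicate 2 (0.104) or 3 (0.0672), with DESeq2 (0.0624) and with no filter (0.0584). The ASO10 call was lost without ASO10 replicate 3 (0.0615).

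MEG9, the most distal of the 3 maternal non-coding RNAs, fell with ASO2 in IMR32, as MEG3 did, and rose in NGP, where MEG3 fell. IMR32 libraries held 131, 167.8, 163.6 and 170.9 normalized counts with NCA, 138.7, 202.4, 239.8 and 202.2 with ASO1, and 104.4, 127.1, 124 and 131.4 with ASO2. The log2 difference was 0.29 ± 0.132 with ASO1 (adjusted p = 0.116) and -0.37 ± 0.132 with ASO2 (adjusted p = 0.0346). Replicate 1 was the lowest library of each group, and the ASO1 difference was called without ASO1 replicate 1 (log2 0.44, adjusted p = 0.00394) and without the 3 replicate 1 libraries (log2 0.35, adjusted p = 0.00322). The ASO2 call was lost without ASO2 replicate 1 (0.0978) or 2 (0.0534) and without NCA replicate 2 (0.0899), 3 (0.0786) or 4 (0.0958). In NGP the counts rose from 81.9, 77.1 and 70.8 with NCA to 95.6, 101.7 and 121.3 with ASO2 and to 151.8, 143.6 and 160.7 with ASO10. The 3 groups did not overlap. This was a 1.97-fold increase with ASO10 (log2 0.98 ± 0.142, adjusted p = 2.31e-06) and a 1.38-fold increase with ASO2 (log2 0.46 ± 0.142, adjusted p = 0.00729, lost without ASO2 replicate 3 at 0.0541). MEG9 in SK-N-BE(2)c was at 379.8, 367 and 454.9 with NCA, 358, 330.9 and 310.7 with ASO2, and 465, 482.8 and 381.1 with ASO10. The ASO2 group lay below the controls and the ASO10 group overlapped them. Limma gave log2 differences of -0.26 ± 0.1 (adjusted p = 0.0235) and 0.14 ± 0.1 (adjusted p = 0.223). The ASO2 call was lost without ASO2 replicate 2 (0.0557) or 3 (0.0956) and without NCA replicate 3 (0.169). The ratio of MEG9 to MEG3 counts in NGP was 0.0120 ± 0.00152 with NCA, 0.0192 ± 0.00305 with ASO2 and 0.0324 ± 0.00127 with ASO10 (SD, n = 3). The SK-N-BE(2)c ratios were 0.0281 ± 0.00335, 0.0324 ± 0.00308 and 0.0495 ± 0.00748, so in both lines the highest ratio was with ASO10.

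DLK1, the paternal protein-coding gene at the other end of the domain, did not follow MEG3 in every line. IMR32 libraries held 97.9, 98.7, 91.2 and 102 normalized counts with NCA, 161.5, 124.7, 135.5 and 152.1 with ASO1, and 114, 114.9, 127.6 and 106.3 with ASO2. All 8 libraries with a NESPR ASO were above all controls. The ASO1 difference was 1.46-fold (log2 0.55 ± 0.0992, adjusted p = 0.000292), and the ASO2 difference of 0.24 ± 0.0992 on the log2 scale was not called (adjusted p = 0.0656). It was called with a replicate block in the limma fit (adjusted p = 0.0475). In NGP DLK1 was at 654.7, 619.4 and 609.2 with NCA, 561.6, 534.2 and 544 with ASO2, and 430, 479.3 and 450.7 with ASO10. The groups formed 3 separate steps. Limma gave log2 differences of -0.20 ± 0.0761 (adjusted p = 0.0277) and -0.47 ± 0.0761 (adjusted p = 1.14e-05). The ASO2 call was lost without ASO2 replicate 2 (0.0759) or 3 (0.0662) and without NCA replicate 1 (0.115). DLK1 in SK-N-BE(2)c was at 9920, 8097 and 8157 with NCA, 10987, 9996 and 8889 with ASO2, and 8411, 7595 and 7572 with ASO10. Control replicate 1 stood above the other controls and inside the ASO2 range. The log2 differences were 0.19 ± 0.0693 with ASO2 (adjusted p = 0.0166) and -0.15 ± 0.0693 with ASO10 (adjusted p = 0.0721, called at 0.0391 at the same total, 0.0269 without ASO10 replicate 1, 0.0338 without NCA replicate 2 and 0.0257 without NCA replicate 3). The ASO2 value fell to 0.05 (adjusted p = 0.51) when every library was brought to the same total, and the call was lost with DESeq2 (0.0998) and without ASO2 replicate 1 (0.159) or 2 (0.0519) or NCA replicate 2 (0.115) or 3 (0.0759). The ratio of DLK1 to MEG3 counts in SK-N-BE(2)c was 0.609 ± 0.0420 with NCA, 0.969 ± 0.116 with ASO2 and 0.875 ± 0.0368 with ASO10 (SD, n = 3). In NGP it was 0.0980 ± 0.00873, 0.0990 ± 0.00996 and 0.0969 ± 0.00802, where the groups overlapped.

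**Figure D3:**
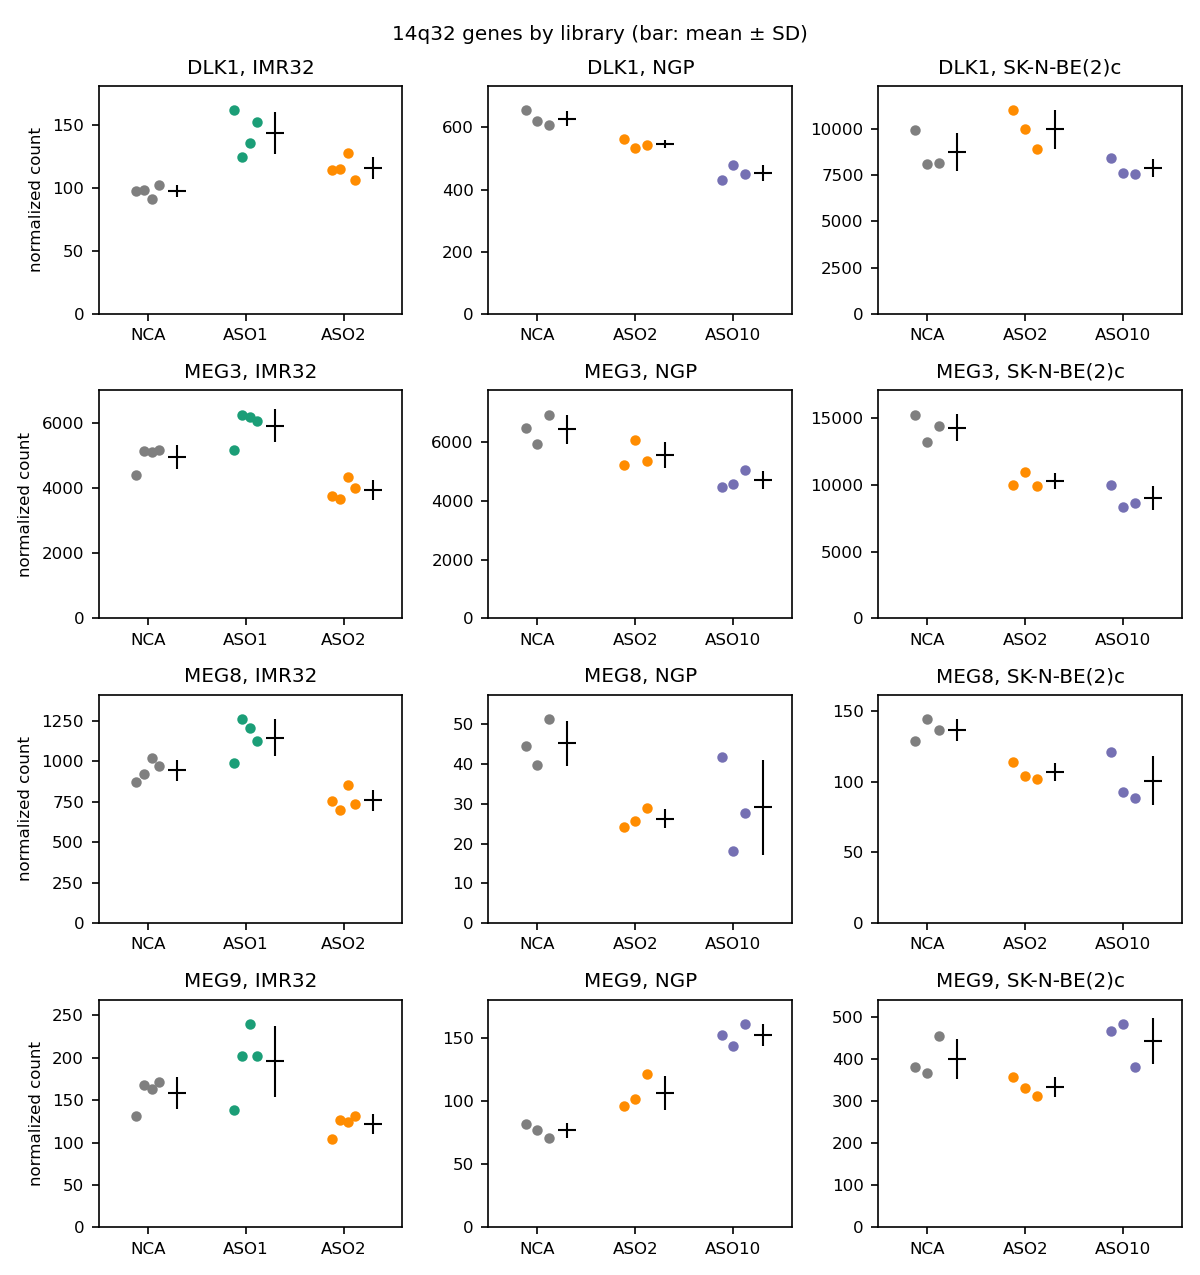
Normalized counts of DLK1, MEG3, MEG8 and MEG9 in each library by line and group, each point 1 library and each bar the group mean with its SD. In NGP, MEG9 rises from NCA to ASO10 while MEG3, MEG8 and DLK1 are lower, and in IMR32 MEG3 and MEG8 are high with ASO1 and low with ASO2.

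The 14q32 domain between DLK1 and DIO3 lists 124 genes by position, most of them small RNAs. In IMR32, 91 of 123 entries had a read and 12 passed the filter of a mean of 10. Of these 12, 3 were higher and 0 lower with ASO1 (against 28.0% of all genes called, median log2 0.28), and 0 higher and 3 lower with ASO2 (against 32.4%, median log2 -0.26). All of these calls were on members, namely DLK1, MEG3 and MEG8 with ASO1 and MEG3, MEG8 and MEG9 with ASO2. Between ASO1 and ASO2, 7 of 12 were higher with ASO1 and 0 lower, with a median log2 difference of 0.57 against -0.00 for all genes and 21.9% of all genes called. The summed counts of the SNORD112 to SNORD114 genes, small nucleolar RNAs of the maternal stretch, were 163 ± 20.3 with NCA, 209 ± 29.8 with ASO1 and 158 ± 20.9 with ASO2 (SD, n = 4). The summed microRNA hairpins were at 95.0 ± 26.8, 126 ± 16.8 and 72.1 ± 13.9 in that order. For both other lines 7 genes of the domain passed the filter, of which 1 was higher and 4 lower with ASO2 in each line (71.4%, against 58.7% of all genes for NGP and 67.0% for SK-N-BE(2)c). With ASO10 the numbers were 1 and 3 in NGP and 0 and 4 in SK-N-BE(2)c (57.1%, against 54.4% and 58.9%). Apart from MIR493HG and, with ASO10 in SK-N-BE(2)c, RTL1, the genes called were members. MIR493HG, a microRNA host transcript of this stretch, fell with ASO2 from 186 ± 21.4 to 74.2 ± 15.5 in SK-N-BE(2)c (log2 -1.33, adjusted p = 8.32e-09) and from 63.1 ± 11.2 to 26.9 ± 11 in NGP (log2 -1.26, adjusted p = 0.000161). With ASO10 its log2 differences were -0.46 (adjusted p = 0.0095) and -0.49 (adjusted p = 0.108) in that order. The labels do not say whether counting used strand, so reads of overlapping genes such as RTL1 and its maternal antisense transcripts cannot be told apart.

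**Figure D4:**
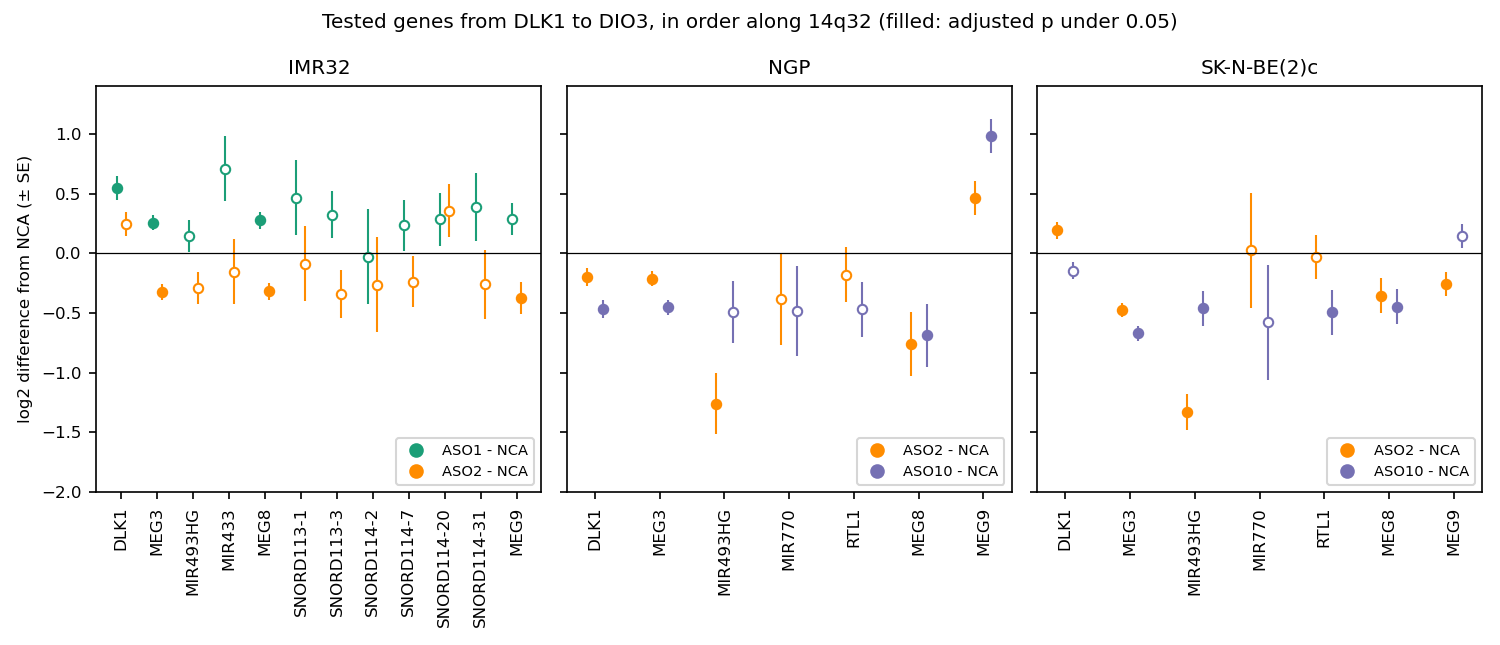
Log2 difference from NCA for the genes tested in the 14q32 domain, ordered along the domain from DLK1 to MEG9, by line and ASO, with standard errors. In IMR32 the values with ASO1 lie above those with ASO2 for 11 of 12 genes.

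Only 2 microRNA hairpins of the domain reached the filter. Their mature sequences from RefSeq (GRCh38.p14) are shown, with the seed (bases 2 to 8) in capitals, because they stand for the RNA made along this stretch, and the 3 seeds differ.
hsa-miR-770-5p: uCCAGUACcacgugucagggcca
hsa-miR-433-3p: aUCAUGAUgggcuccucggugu
hsa-miR-433-5p: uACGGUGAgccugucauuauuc
The libraries count fragments of longer RNA, not mature microRNAs. MIR433 was at 14.3 ± 4.44 normalized counts with NCA, 23.2 ± 3.84 with ASO1 and 12.7 ± 4.45 with ASO2 in IMR32. Its difference between ASO1 and ASO2 was 0.86 on the log2 scale (adjusted p = 0.0267), and against NCA neither ASO was called (adjusted p = 0.057 and 0.703). MIR770 was listed at 0 in every IMR32 library and held 13.8 ± 3.58 with NCA, 10.3 ± 2.17 with ASO2 and 9.49 ± 1.78 with ASO10 in NGP, with no call (adjusted p = 0.397 and 0.291).

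At 11p15, H19 and IGF2 gave the 2 largest differences from NCA among the 10 genes, both with ASO2 in IMR32. Both were higher with each NESPR ASO in IMR32, and both were lower with ASO10 in NGP. H19 in IMR32 was at 226.5, 228.2, 193.3 and 203.9 normalized counts with NCA, 369.6, 311.8, 347.9 and 331.7 with ASO1, and 559.6, 517.9, 494.9 and 447.9 with ASO2. The 3 groups did not overlap. H19 rose 1.60-fold with ASO1 (log2 0.67 ± 0.0785, adjusted p = 2.12e-06) and 2.36-fold with ASO2 (log2 1.24 ± 0.0785, adjusted p = 2.02e-09). In NGP, where H19 was the most abundant of the 10 genes per length, it was at 27782, 25806 and 25118 with NCA, 23663, 24908 and 21445 with ASO2, and 16249, 17651 and 17837 with ASO10. Again the groups did not overlap, with ASO10 the lowest. Against NCA the log2 differences were -0.17 ± 0.0516 with ASO2 (adjusted p = 0.00648) and -0.61 ± 0.0516 with ASO10 (adjusted p = 3.58e-10). The ASO2 call was lost without ASO2 replicate 3 (0.0796) or NCA replicate 1 (0.0634). H19 in SK-N-BE(2)c was at 16.4 to 28.3 in all 9 libraries, and the differences of 0.14 ± 0.289 and -0.06 ± 0.289 were not called (adjusted p = 0.69 and 0.878). At these counts a difference of the size seen in NGP with ASO2 was not detectable.

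IGF2, the growth factor that signals through IGF1R, held fewer normalized counts in IMR32, which was scaled on its own, than in the other lines. IMR32 libraries held 51.9, 48.1, 41.7 and 41.3 with NCA, 88.5, 51.1, 68.2 and 56 with ASO1, and 119.3, 123.4, 113.2 and 107.4 with ASO2. All ASO2 libraries were above all others, and 1 ASO1 library lay within the control range. IGF2 rose 2.51-fold with ASO2 (log2 1.32 ± 0.146, adjusted p = 1.63e-06). With ASO1 the log2 difference was 0.49 ± 0.146 (adjusted p = 0.0153), and it was lost without ASO1 replicate 1 (log2 0.34, adjusted p = 0.0658). In NGP IGF2 was at 2712, 2589 and 2603 with NCA, 2256, 2796 and 1998 with ASO2, and 1724, 1984 and 1864 with ASO10. The ASO2 group spread across the controls, while ASO10 lay below them. The ASO2 difference was called without ASO2 replicate 2 (adjusted p = 0.000728) or NCA replicate 3 (adjusted p = 0.0405) and at the same total (log2 -0.25, adjusted p = 0.0115). On the log2 scale the differences were -0.18 ± 0.0801 (adjusted p = 0.0583) and -0.51 ± 0.0801 (adjusted p = 8.12e-06). IGF2 in SK-N-BE(2)c was at 3140, 2702 and 2725 with NCA, 2783, 2682 and 2182 with ASO2, and 1862, 1558 and 1767 with ASO10. ASO10 again lay below the controls, with a 1.65-fold decrease (log2 -0.72 ± 0.0769, adjusted p = 5e-09), and the ASO2 difference of -0.17 ± 0.0769 was not called (adjusted p = 0.0551). It was called without ASO2 replicate 1 (0.0156) or 2 (0.0435) and without NCA replicate 2 (0.043) or 3 (0.0351), and also with edgeR (0.0402), a pseudocount of 5 (0.0498) and only the 2 groups compared (0.046). At the same total it was -0.31 (adjusted p = 0.00128). The ratio of H19 to IGF2 counts was 9.95 ± 0.298 with NCA, 10.0 ± 0.991 with ASO2 and 9.30 ± 0.354 with ASO10 in NGP (SD, n = 3), and 4.67 ± 0.238, 5.32 ± 0.882 and 4.36 ± 0.239 with NCA, ASO1 and ASO2 in IMR32 (SD, n = 4). IGF2 overlaps the annotated INS-IGF2 read-through and the antisense IGF2-AS. Reads shared with either cannot be told apart here, and knowing the strand would help only for IGF2-AS.

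KCNQ1OT1, the paternal RNA of the CDKN1C domain, held more normalized counts in IMR32 than in the other lines. IMR32 was scaled on its own, and the library kit of each line is not known. A difference in expression and one in processing thus cannot be told apart here. IMR32 libraries held 8285, 9593, 9895 and 10222 normalized counts with NCA, 6665, 9288, 8985 and 8494 with ASO1, and 6415, 6889, 7942 and 7624 with ASO2. ASO2 lay below the controls, and ASO1 overlapped them. The log2 differences were -0.19 ± 0.0877 with ASO1 (adjusted p = 0.112) and -0.40 ± 0.0877 with ASO2 (adjusted p = 0.00175). The ASO1 difference was called without NCA replicate 1 (adjusted p = 0.032) and without the 3 replicate 1 libraries (log2 -0.15, adjusted p = 0.0025). In NGP KCNQ1OT1 was at 325.1, 352.7 and 413.3 with NCA, 506.9, 473.9 and 440.5 with ASO2, and 276.1, 337.6 and 301.8 with ASO10. ASO2 was above the controls without overlap. Limma gave log2 differences of 0.39 ± 0.1 (adjusted p = 0.00189) and -0.25 ± 0.1 (adjusted p = 0.0377). The ASO10 call was lost with edgeR (0.0564), DESeq2 (0.0779), no filter (0.063) and only the 2 groups compared (0.0617), and without ASO10 replicate 1 (0.189) or 3 (0.0758) or NCA replicate 3 (0.189). SK-N-BE(2)c counts were 232.3, 235.9 and 220.7 with NCA, 270.7, 312.7 and 374.3 with ASO2, and 140.4, 132 and 121.3 with ASO10. The 3 groups were apart, with ASO2 above and ASO10 below the controls. Their log2 differences were 0.46 ± 0.117 (adjusted p = 0.00104) and -0.80 ± 0.117 (adjusted p = 1.17e-06). KCNQ1, which KCNQ1OT1 overlaps in antisense, was at a mean of at most 2.78 in any group.

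CDKN1C encodes p57, an inhibitor of cyclin-dependent kinases. IMR32 libraries held 148.7, 160.4, 141.7 and 171.8 normalized counts with NCA, 198.9, 207.5, 223.7 and 223.1 with ASO1, and 164, 206.2, 187.7 and 193.1 with ASO2. ASO1 lay above the controls, and 1 ASO2 library was among them. CDKN1C rose 1.37-fold with ASO1 (log2 0.45 ± 0.0873, adjusted p = 0.000519) and 1.20-fold with ASO2 (log2 0.27 ± 0.0873, adjusted p = 0.0229). The ASO2 call was lost at the same total (0.0594), with DESeq2 (0.0579) and without ASO2 replicate 2 (0.0858) or 4 (0.0569) or NCA replicate 3 (0.0799). In NGP CDKN1C was at 71, 82.4 and 62.6 with NCA, 98.4, 96.8 and 84.5 with ASO2, and 62.2, 60.9 and 67.1 with ASO10. ASO2 lay above the controls, but neither difference was called (log2 0.37 ± 0.164, adjusted p = 0.0528, and -0.17 ± 0.164, adjusted p = 0.384). The ASO2 difference was called without ASO2 replicate 3 (0.0471) or NCA replicate 2 (0.0307) and with a filter at a mean of 50 (0.0466). In SK-N-BE(2)c it held 0 to 3.14 in 9 libraries. The ratio of KCNQ1OT1 to CDKN1C counts in IMR32 was 61.2 ± 6.04 with NCA, 39.1 ± 4.67 with ASO1 and 38.6 ± 3.73 with ASO2 (SD, n = 4), and both NESPR groups lay below the controls. In NGP it was 5.15 ± 1.27, 5.09 ± 0.166 and 4.83 ± 0.622 with NCA, ASO2 and ASO10 (SD, n = 3), where the groups overlapped.

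**Figure D5:**
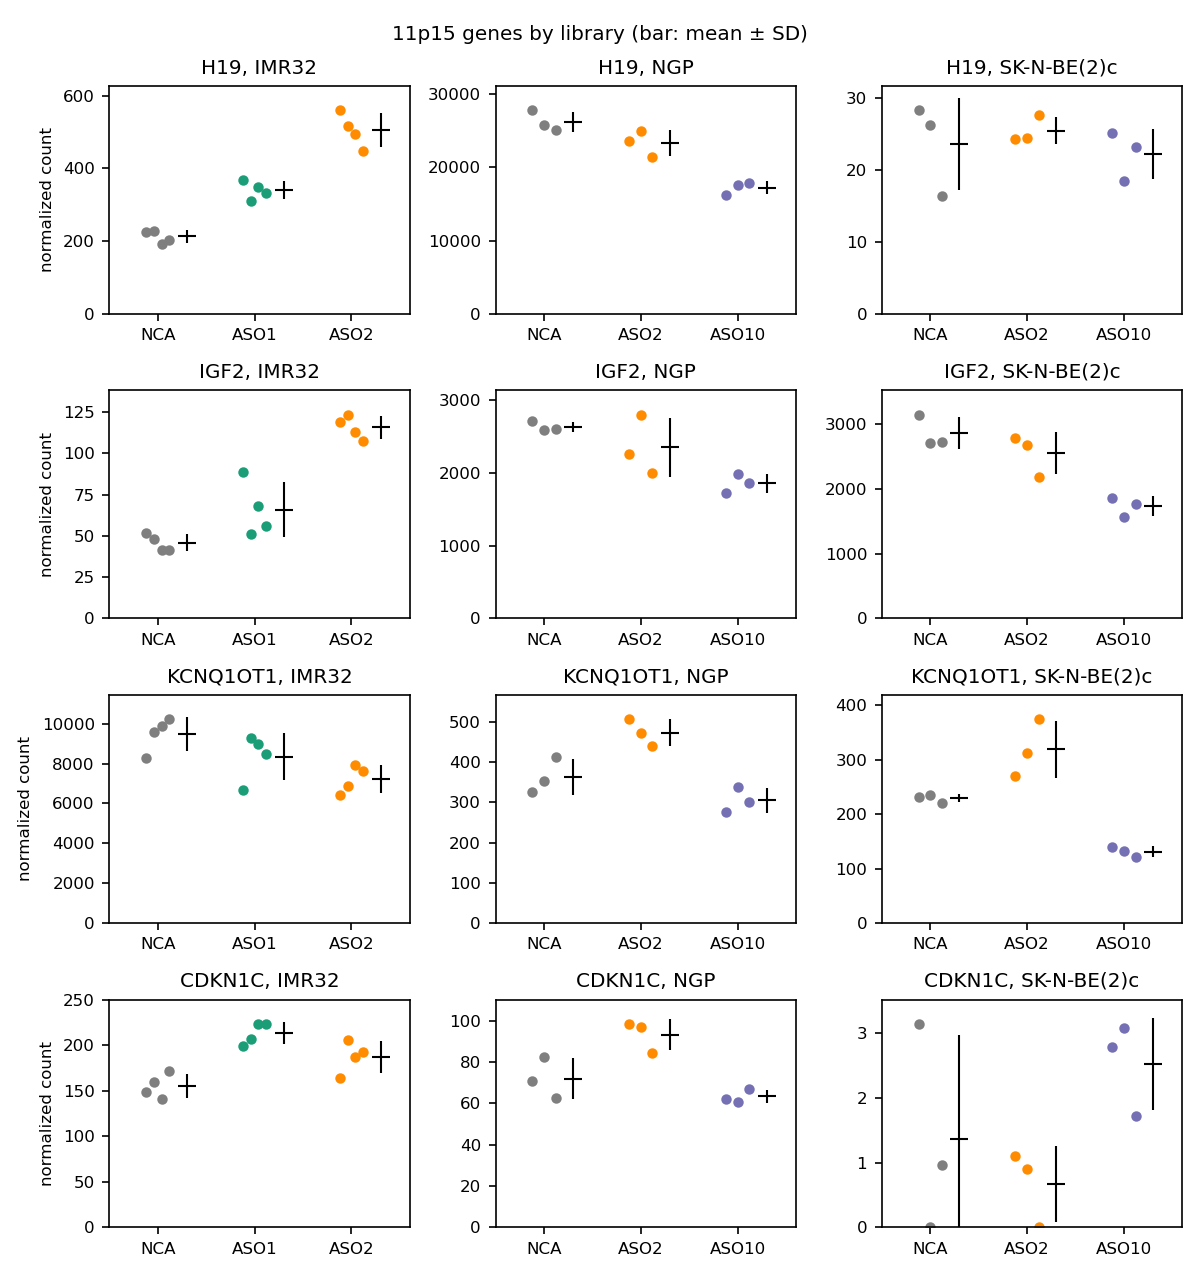
Normalized counts of H19, IGF2, KCNQ1OT1 and CDKN1C in each library by line and group, each point 1 library and each bar the group mean with its SD. H19 and IGF2 are higher with ASO2 in IMR32 and lower with ASO10 in NGP, and KCNQ1OT1 in SK-N-BE(2)c is higher with ASO2 and lower with ASO10.

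PEG10 and PEG3 lie outside both domains. PEG10 in IMR32 was at 1930, 1669, 1599 and 1580 normalized counts with NCA, 2511, 2160, 2262 and 2241 with ASO1, and 1755, 1588, 1532 and 1594 with ASO2. ASO1 lay above all other libraries, with a 1.36-fold increase over NCA (log2 0.44 ± 0.063, adjusted p = 2.49e-05), and ASO2 gave -0.06 ± 0.063 (adjusted p = 0.467). In NGP PEG10 was at 8218, 8278 and 9030 with NCA, 9767, 10002 and 9216 with ASO2, and 8930, 8842 and 8433 with ASO10. The log2 difference was 0.18 ± 0.0477 with ASO2 (adjusted p = 0.00189) and 0.04 ± 0.0477 with ASO10 (adjusted p = 0.514). In SK-N-BE(2)c it was at 7330, 6694 and 6818 with NCA, 6729, 7375 and 7123 with ASO2, and 5743, 5396 and 5941 with ASO10, so that ASO10 alone stood apart. There the log2 difference was 0.03 ± 0.0524 with ASO2 (adjusted p = 0.672) and -0.29 ± 0.0524 with ASO10 (adjusted p = 3.15e-05). PEG3 in NGP was at 659.2, 708 and 813.3 with NCA, 561.6, 588.5 and 508.4 with ASO2, and 922.2, 804.5 and 871.8 with ASO10. ASO2 lay below the controls, and ASO10 overlapped them at its lowest library. The log2 differences were -0.39 ± 0.0829 (adjusted p = 0.000258) and 0.26 ± 0.0829 (adjusted p = 0.0114, lost without ASO10 replicate 1 at 0.0751 or NCA replicate 1 at 0.0938). PEG3 was at 19.7 to 32.3 in every IMR32 library with no call (adjusted p = 0.993 and 0.927), and at 0 to 5.23 in SK-N-BE(2)c.

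The NESPR ASOs were then set against each other within each line. In IMR32, 7 of 10 genes differed between ASO1 and ASO2 (5 higher with ASO1, 2 lower) against 21.9% of all genes (9.17% and 12.8%). MEG3 (log2 0.58, adjusted p = 2.69e-06), MEG8 (0.59, adjusted p = 7.8e-06), MEG9 (0.66, adjusted p = 0.00108), PEG10 (0.50, adjusted p = 9.27e-06) and DLK1 (0.30, adjusted p = 0.0324) were higher with ASO1. H19 (-0.57, adjusted p = 3e-05) and IGF2 (-0.83, adjusted p = 0.000338) were higher with ASO2. The DLK1 call was lost without ASO1 replicate 1 (0.0921) or 4 (0.0902), without ASO2 replicate 1 (0.059), 2 (0.0668) or 4 (0.0956), with no filter (0.053) and without the replicate 1 libraries (0.118). KCNQ1OT1 differed by 0.20 ± 0.0877 (adjusted p = 0.103) and was called without ASO1 replicate 1 (0.0018) and without the replicate 1 libraries (2.37e-06). In NGP, 9 of 10 differed between ASO2 and ASO10 (7 higher with ASO2, 2 lower) against 58.6% of all genes (30.6% and 28.0%), and MEG8 was the exception (-0.07 ± 0.266, adjusted p = 0.831). PEG3 (-0.65, adjusted p = 2.82e-07) and MEG9 (-0.52, adjusted p = 0.00289) were higher with ASO10. KCNQ1OT1 (0.64), CDKN1C (0.55), H19 (0.43), IGF2 (0.33), DLK1 (0.27), MEG3 (0.24) and PEG10 (0.15) were higher with ASO2, of which PEG10 lost its call at the same total (0.122) and without ASO2 replicate 2 (0.061) or ASO10 replicate 3 (0.0578). In SK-N-BE(2)c, 6 of 8 differed (5 higher with ASO2, 1 lower) against 65.4% of all genes (34.6% and 30.8%). KCNQ1OT1 was 2.41-fold higher with ASO2 than with ASO10 (log2 1.27 ± 0.117, adjusted p = 2.07e-10). IGF2 (0.56), DLK1 (0.34), PEG10 (0.31) and MEG3 (0.20) were also higher with ASO2, and MEG9 (-0.40) was higher with ASO10. The MEG3 value was 0.08 (adjusted p = 0.235) at the same total and lost its call without ASO2 replicate 2 (0.0686) or ASO10 replicate 2 (0.0573).

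Because SK-N-BE(2)c and NGP were scaled together, the difference between their responses was tested as an interaction. The filter took the mean over both lines, so CDKN1C and PEG3, too low to test in SK-N-BE(2)c, passed through NGP alone. Neither was called for either ASO. With ASO2, 2 of 10 genes differed between the lines (1 higher and 1 lower in SK-N-BE(2)c) against 16.7% of all genes tested (8.79% and 7.95%). DLK1 was lower in NGP and higher in SK-N-BE(2)c (difference of the log2 changes 0.39 ± 0.104, adjusted p = 0.0117). MEG9 was higher in NGP and lower in SK-N-BE(2)c (-0.72 ± 0.17, adjusted p = 0.00503). With ASO10, 5 of 10 were called as different (2 higher, 3 lower) against 16.9% of all genes (8.09% and 8.78%). MEG9 (-0.84 ± 0.17, adjusted p = 0.00161) and PEG10 (-0.33 ± 0.0732, adjusted p = 0.00365) changed less upward or more downward in SK-N-BE(2)c, and both calls were kept under every alternative run. KCNQ1OT1 (-0.55 ± 0.161, adjusted p = 0.0206) lost its call without NGP ASO10 replicate 2 (0.0541), NGP NCA replicate 1 (0.0672) or SK-N-BE(2)c ASO10 replicate 3 (0.0545). H19 (0.55 ± 0.182, adjusted p = 0.0405) and DLK1 (0.32 ± 0.104, adjusted p = 0.0349) were called in 8 and 10 of 18 alternatives. The H19 call was lost without NGP ASO10 replicate 1, 2 or 3, NGP NCA replicate 1 or 2, SK-N-BE(2)c ASO10 replicate 1 or 3, or SK-N-BE(2)c NCA replicate 3 (adjusted p 0.0546 to 0.112). The joint fit used a shared spread for both lines. Its standard error of 0.182 for H19 was below the 0.289 of the SK-N-BE(2)c comparison alone. The H19 adjusted p thus overstates the precision, and a difference between the lines is not shown for H19. The DLK1 call was lost without NGP ASO10 replicate 1 or 3, NGP NCA replicate 1 or 2, SK-N-BE(2)c ASO10 replicate 1, or SK-N-BE(2)c NCA replicate 2 or 3 (adjusted p 0.054 to 0.0972). MEG3 was lower in both lines, and its interactions of -0.26 ± 0.103 and -0.22 ± 0.103 were not called (adjusted p = 0.0829 and 0.154). The first was called without NGP NCA replicate 3 (0.0333) or SK-N-BE(2)c NCA replicate 2 (0.0495) and at the same total (-0.33, adjusted p = 0.0296), and the second without SK-N-BE(2)c ASO10 replicate 1 (0.0419). IMR32 had been scaled apart, so its response was not tested against the other lines.

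Genes beside the 10 in the imprinted domains were followed by lists. At 11p15, 7 of 19 other genes were tested. TSSC4 rose with both NESPR ASOs in IMR32 (log2 0.50, adjusted p = 3.28e-05, and 0.55, adjusted p = 1.32e-05) and again for SK-N-BE(2)c (0.84, adjusted p = 1.22e-10, and 0.51, adjusted p = 1.49e-06). PHLDA2, a maternal gene of the CDKN1C domain, was at 3.54 ± 2.30 with NCA, 14.1 ± 2.84 with ASO2 and 33.6 ± 7.39 with ASO10 in NGP. In SK-N-BE(2)c PHLDA2 was at 2.96 ± 2.50 with NCA, 7.94 ± 5.43 with ASO2 (log2 1.13, adjusted p = 0.0787) and 19.2 ± 5.74 with ASO10 (log2 2.49, adjusted p = 0.000432). In both lines PHLDA2 was under 10 with NCA and passed the filter through the groups with a NESPR ASO. Its test is thus not independent of the filter. OSBPL5 in SK-N-BE(2)c fell with ASO2 (log2 -0.84, adjusted p = 2.71e-06) and rose with ASO10 (0.40, adjusted p = 0.012). ZNF215 in NGP rose with ASO2 (0.34, adjusted p = 0.00276) and fell with ASO10 (-0.77, adjusted p = 1.2e-07). The numbers higher and lower of 7 were 1 and 0 with ASO1 and 3 and 2 with ASO2 in IMR32, 4 and 0 with ASO2 and 1 and 2 with ASO10 in NGP, and 4 and 1 with each ASO in SK-N-BE(2)c. These are 14.3% and 71.4% called in IMR32 against 28.0% and 32.4% of all genes with ASO1 and ASO2. With ASO2 and ASO10 they are 57.1% and 42.9% in NGP against 58.7% and 54.4% of all genes, and 71.4% each in SK-N-BE(2)c against 67.0% and 58.9%. Near the 14q32 domain, BEGAIN fell with ASO10 in SK-N-BE(2)c (-1.08, adjusted p = 6.08e-07) and NGP (-0.86, adjusted p = 2.08e-07). WDR25 in SK-N-BE(2)c fell with ASO2 (-0.83, adjusted p = 9.14e-05) and rose with ASO10 (0.87, adjusted p = 7.06e-05).

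Among other imprinted genes, 17 mainly paternal ones were tested in IMR32 and 13 in each other line. Of these, 2 were higher and 5 lower with ASO1 and 3 and 4 with ASO2 in IMR32, 5 and 5 with ASO2 and 3 and 2 with ASO10 in NGP, and 4 and 5 with ASO2 and 0 and 5 with ASO10 in SK-N-BE(2)c. Against the shares of all genes just given, the called shares in the same order were 41.2% and 41.2% in IMR32, 76.9% and 38.5% in NGP, and 69.2% and 38.5% in SK-N-BE(2)c. The list medians lay between -0.18 and -0.04, below the medians of all genes in each comparison. SNHG14, the long host transcript of the Prader-Willi domain, fell with ASO2 in SK-N-BE(2)c (log2 -0.78, adjusted p = 1.91e-12) and NGP (-0.78, adjusted p = 3.07e-10), and it rose with ASO10 in NGP (0.32, adjusted p = 0.000198). L3MBTL1, a chromatin-binding protein, fell with ASO2 in all 3 lines (SK-N-BE(2)c at -1.48, adjusted p = 9.11e-08, NGP at -1.08, adjusted p = 9.35e-07, and IMR32 at -0.29, adjusted p = 0.0166). GNAS-AS1 fell with ASO2 in SK-N-BE(2)c (-0.69, adjusted p = 0.011) and NGP (-1.32, adjusted p = 5.22e-07). Of mainly maternal genes, 12 were tested in IMR32 and NGP and 10 in SK-N-BE(2)c, with 2 to 4 higher and 2 to 5 lower in each comparison, or 50.0% to 66.7% called, against 28.0% to 67.0% of all genes. PPP1R9A in NGP fell with ASO2 (-0.75, adjusted p = 0.000238) and ASO10 (-1.85, adjusted p = 3.4e-10). HM13 fell with ASO2 in all 3 lines (SK-N-BE(2)c at -0.88, adjusted p = 7.63e-14, NGP at -0.67, adjusted p = 6.49e-10, and IMR32 at -0.21, adjusted p = 0.00411). IGF2R, the receptor that clears IGF2, fell with ASO10 in SK-N-BE(2)c (-0.58, adjusted p = 3.97e-09) and NGP (-0.86, adjusted p = 7.83e-11). ZFAT, whose assignment to this list was not checked, fell with ASO2 in the same lines (-1.29, adjusted p = 3.01e-08, and -1.45, adjusted p = 1.61e-09).

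Of the keepers of imprints and DNA methylation, 14 were tested in IMR32 and 12 in each other line. The numbers higher and lower were 2 and 0 with ASO1 and 5 and 1 with ASO2 in IMR32, 6 and 3 with ASO2 and 6 and 4 with ASO10 in NGP, and 6 and 3 with ASO2 and 7 and 3 with ASO10 in SK-N-BE(2)c. The called shares were 14.3% and 42.9% in IMR32 against 28.0% and 32.4% of all genes. They were 75.0% with ASO2 and 83.3% with ASO10 in NGP (all genes 58.7% and 54.4%) and the same in SK-N-BE(2)c (all genes 67.0% and 58.9%). DNMT3A, a DNA methyltransferase, rose with ASO2 in SK-N-BE(2)c (log2 0.87, adjusted p = 1.99e-13) and NGP (0.51, adjusted p = 2.52e-08), and in IMR32 it gave 0.06 (adjusted p = 0.315). SETDB1, the histone methyltransferase that TRIM28 brings to imprinted control regions, fell with ASO2 from 1410 ± 36.5 to 551 ± 2.25 in SK-N-BE(2)c (log2 -1.35, adjusted p = 8.66e-17) and from 2250 ± 27.4 to 779 ± 54.7 in NGP (-1.53, adjusted p = 7.07e-16). For IMR32 the drop with ASO2 was -0.32 (adjusted p = 5.46e-05), and in SK-N-BE(2)c it rose with ASO10 (0.43, adjusted p = 5.94e-07). TET3, which oxidises methylated cytosine, rose with ASO2 in IMR32 (0.30, adjusted p = 1.39e-05), NGP (0.66, adjusted p = 5.72e-10) and SK-N-BE(2)c (0.66, adjusted p = 1.33e-10). These lists were not chosen independently of earlier results, and no relation of these genes to the imprinted genes was tested.

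The pathways in which DLK1, IGF2 and CDKN1C act were counted in the same way, and called shares are set beside those of all genes, which were 28.0% (ASO1) and 32.4% (ASO2) for IMR32, 58.7% (ASO2) and 54.4% (ASO10) for NGP, and 67.0% and 58.9% for SK-N-BE(2)c. In the IGF2 axis, IRS2, an adaptor of the insulin and IGF receptors, was called higher in 6 of 6 comparisons, from log2 0.33 (adjusted p = 0.000343) with ASO10 in NGP to 0.98 (adjusted p = 1.26e-09) with ASO2 in SK-N-BE(2)c. IGF1R, the signalling receptor of IGF2, fell with ASO2 in NGP (-0.54, adjusted p = 9.31e-07) and SK-N-BE(2)c (-0.81, adjusted p = 7.39e-12) and rose with ASO10 in NGP (0.43, adjusted p = 2.64e-05). The axis had 2 higher and 6 lower of 11 with ASO1 and 2 and 5 with ASO2 in IMR32, 6 and 4 of 11 with ASO2 and 4 and 5 with ASO10 in NGP, and 6 and 4 of 12 with ASO2 and 2 and 4 with ASO10 in SK-N-BE(2)c. These are 72.7% and 63.6%, 90.9% and 81.8%, and 83.3% and 50.0% called. In the Notch pathway, HEY1, a target of Notch receptors, rose with ASO1 (1.30, adjusted p = 2.56e-06) and ASO2 (0.87, adjusted p = 0.000256) in IMR32, with ASO2 in NGP (1.36, adjusted p = 1.07e-10), and with both ASOs in SK-N-BE(2)c (0.90, adjusted p = 1.59e-11, and 0.34, adjusted p = 0.000224). NOTCH3 fell with ASO2 in NGP (-2.07, adjusted p = 7.57e-10) and SK-N-BE(2)c (-2.01, adjusted p = 7.71e-09) and rose with ASO10 in both (1.65, adjusted p = 4.19e-08, and 2.11, adjusted p = 5.53e-09). Notch genes numbered 2 higher and 3 lower of 16 with ASO1 and 5 and 2 with ASO2 in IMR32, 6 and 2 of 14 and 7 and 3 with ASO2 and ASO10 in NGP, and 4 and 2 of 11 and 4 and 3 in SK-N-BE(2)c, or 31.2% and 43.8%, 57.1% and 71.4%, and 54.5% and 63.6% called. HES1, a target of Notch receptors, rose in IMR32 from 4.36 ± 2.01 normalized counts with NCA to 12.6 ± 2.36 with ASO1 (adjusted p = 0.00094) and 16.6 ± 1.80 with ASO2 (log2 1.78, adjusted p = 0.000102). NOTCH1 in NGP rose from 5.35 ± 3.87 to 26.6 ± 13.7 with ASO2 (2.30, adjusted p = 8.08e-05) and 45.6 ± 3.35 with ASO10 (3.16, adjusted p = 1.3e-06). HES1 in IMR32 and NOTCH1 in NGP, low with NCA, passed the filter through the groups with a NESPR ASO. Their tests are thus not independent of the filter. DLL4, a Notch ligand whose counts are not given here, rose with ASO10 in SK-N-BE(2)c (2.83, adjusted p = 1.33e-05). Of the 7 other CDK inhibitors, 2 were higher and 0 lower with each ASO in IMR32, 4 and 0 with ASO2 and 3 and 1 with ASO10 in NGP, and 6 and 1 with ASO2 and 4 and 1 with ASO10 in SK-N-BE(2)c, or 28.6% with each in IMR32, 57.1% with each in NGP, and 100% and 71.4% called. CDKN2B, an inhibitor of CDK4 and CDK6, was called higher in 6 of 6 comparisons, from log2 0.45 (adjusted p = 0.00422) with ASO10 in SK-N-BE(2)c to 2.00 (adjusted p = 0.00027) with ASO2 in IMR32, where it held 4.07 ± 2.89 normalized counts with NCA and 16.8 ± 2.32 with ASO2. CDKN2B in IMR32 also passed the filter through the groups with a NESPR ASO. Its IMR32 calls are thus not independent of the filter, though they enter the 6 of 6 and the CDK inhibitor counts for IMR32. CDKN1A rose with both ASOs in IMR32 (0.53, adjusted p = 4.53e-05, and 1.05, adjusted p = 1.78e-08) and NGP (1.44, adjusted p = 1.37e-14, and 1.62, adjusted p = 1.17e-15).

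The genes whose log2 levels were most alike to each member across the libraries of a line are given as a description, since libraries of one ASO group share that treatment. Over the 12 IMR32 libraries MEG3 was closest to MEG8 (Pearson r = 0.98), H19 to ATXN7L3 (0.99), IGF2 to TP53BP2 (0.98) and DLK1 to ZC3H7B (0.96). Over the 9 NGP libraries H19 was closest to HAND1 (0.99), DLK1 to RECK (0.99), MEG3 to RMDN1 (0.99) and IGF2 to ACE (0.98). Over the 9 SK-N-BE(2)c libraries MEG3 was closest to PUS7L (0.99), IGF2 to DDX12B (0.98), DLK1 to CST3 (0.96) and H19 to ORAI2 (0.87). No gene headed the list of the same member in more than 1 line.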

How the data were processed

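RNA was sequenced in 30 libraries of 9 groups, taken from the labels. Per the labels, the authors deposited normalized counts by gene, a signal in which each library's counts are divided by 1 size factor. The submitters' processing notes name FastQC 0.11.8, cutadapt 1.18, STAR 2.6.0, HTSeq 0.6.1, DESeq2 1.42.0 and hg19 (GRCh37), with no role or order. Libraries were made, per the labels' protocols, with a stranded total RNA kit or a stranded mRNA kit, and which library had which is not given in the sources used here. A total RNA kit also counts unspliced and non-polyadenylated RNA, which can raise long nuclear RNAs such as KCNQ1OT1 and MEG3. The steps between low values gave whole reads (100% of values within 0.01 read). In IMR32, 174 entries without a gene ID (0.172% of the values) were left out, 92 of them spike-in entries. The other lines had 0 spike-in entries. The number of per-sample columns left unused was 0.

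A gene was tested in a line where its libraries averaged 10 or more (17309 in IMR32, 14440 in NGP, 13556 in SK-N-BE(2)c) with limma 3.58.1 in R 4.3.3 on log2(value + 1), which understates changes of low genes. The mean ran over all groups, so a gene low with NCA could pass through the ASO group where it was high. All groups of a line shared 1 model, p-values were two-sided, and Benjamini-Hochberg adjusted p under 0.05 over all genes tested was called. NGP and SK-N-BE(2)c were fitted together for the interactions (14537 genes). Alternatives were edgeR 4.0.16 and DESeq2 1.42.0 on recovered reads, TMM scaling, the same total for every library, other pseudocounts and filters, only the 2 groups compared, a replicate block, and each library left out. Leaving out all replicate 1 libraries of IMR32 was added after seeing the data. The tests were checked on simulated counts in which a small share of genes changed, by larger folds than those of most members. That check does not cover changes as small as most of those given here. Nor does it cover scaling when many genes change. A change of scaling or depth error acts on every gene of a library, so ratios between 2 genes are given beside the fits. Nothing says that replicates were separate cultures, so p-values measure only the spread between these libraries. No contrast had every correlation between same-numbered libraries above 0.1, so replicate numbers were not taken as pairs. Gene IDs gave a symbol for 99.99% of IMR32 genes and 90.4% of the others, and of 147 listed symbols 145 matched an entry. IGF2 is ENSG00000167244. Exon lengths came from GENCODE 29 and sequences from RefSeq (GRCh38.p14), while gene coordinates of hg19 were not used here. Named genes were all 10 members and, of each list, genes among its 3 largest called rises or falls of a comparison with NCA, not all of which are printed. One marker of the lists is not reported here. The members and lists were chosen with earlier results of these data known.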

Additional observations from a re-analysis of the deposited data

Results flagged for a closer look

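MEG3 in IMR32 had 1 library standing apart from the other 3 of its group in both the NCA group (replicate 1, 4411) and the ASO1 group (replicate 1, 5174), each the lowest, by Dixon's test at its 95% critical value. These were 2 of 30 groups of 4 libraries examined, and chance flags about 1 in 20.

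The ASO responses of NGP and SK-N-BE(2)c were called as different by the interaction test of limma for 7 results. Each is given as the log2 change in SK-N-BE(2)c minus that in NGP. With ASO2 these were DLK1 (0.39, adjusted p = 0.0117) and MEG9 (-0.72, adjusted p = 0.00503). With ASO10 they were H19 (0.55, adjusted p = 0.0405), DLK1 (0.32, adjusted p = 0.0349), MEG9 (-0.84, adjusted p = 0.00161), PEG10 (-0.33, adjusted p = 0.00365) and KCNQ1OT1 (-0.55, adjusted p = 0.0206). H19 in SK-N-BE(2)c rested on at most 28.3 normalized counts per library. The joint fit gave the H19 result a standard error of 0.182, below the 0.289 of the SK-N-BE(2)c comparison alone. Its adjusted p thus overstates the precision, and a difference between the lines is not shown for H19.

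With ASO2, 3 genes had differences of opposite sign in IMR32 and another line, without overlap between the ASO2 and control libraries. The share of all genes that did so is not given here, and these differences between lines were not tested. DLK1 was 0.24 in IMR32 on the log2 scale, which limma did not call (adjusted p = 0.0656). In NGP DLK1 was -0.20, a call lost without ASO2 replicate 2 or 3 or NCA replicate 1. H19 was 1.24 in IMR32 and -0.17 in NGP, where the call was lost without ASO2 replicate 3 or NCA replicate 1. KCNQ1OT1 was 0.46 in SK-N-BE(2)c and 0.39 in NGP, against -0.40 in IMR32.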

How the results depend on the processing

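Of 69 called results of single members, 49 kept their direction and call under every alternative run, and over 1783 alternatives of 104 results 1623 kept direction and call, 85 lost the call, 37 gained it and 38 changed sign. The counts of all genes called stayed within 1.5 times under all 189 alternatives, and of the 189 counts of members 13 did not. In SK-N-BE(2)c with ASO2 against NCA, 3 members were called with DESeq2 instead of 5, and 3 to 5 when 1 library was left out. For the difference between lines, 4 members instead of 2 were called with ASO2 at the same total and 2 to 3 with 1 library left out. With ASO10, 3 instead of 5 were called with no filter and 2 to 6 with 1 library left out, with 2 without NGP NCA replicate 1. The cause was not tested. Signs that changed belonged to results that were not called. PEG3 in IMR32 with ASO1 was 0.017 at the same total, 0.013 with TMM scaling, 0.058 without the replicate 1 libraries and -0.12 to 0.060 with 1 library left out. PEG3 with ASO2 was 0.025 without the replicate 1 libraries and -0.15 to 0.040 with 1 left out, and between ASO1 and ASO2 it was -0.043 to 0.14. MEG8 in NGP between ASO2 and ASO10 ran from -0.36 to 0.22, and 0.22 was without ASO10 replicate 1. MEG8 in SK-N-BE(2)c between ASO2 and ASO10 was -0.019 at the same total. PEG10 in SK-N-BE(2)c with ASO2 was -0.11 at the same total and -0.0039 to 0.066 with 1 left out. H19 in SK-N-BE(2)c ran from -0.095 to 0.28 with ASO2 and from -0.29 to 0.085 with ASO10. Of the differences between lines with ASO2, IGF2 was -0.057 at the same total and -0.10 to 0.14 with 1 left out, PEG3 was 0.068 with a pseudocount of 5 and -0.88 to 0.012 with 1 left out, and KCNQ1OT1 ran from -0.045 to 0.19. MEG8 with ASO10 ran from -0.050 to 0.53. The same total moved the median of all genes in SK-N-BE(2)c with ASO2 from -0.02 to -0.15. The share of called genes that were higher moved at the same total from 41.8% to 59.8% for ASO1 against ASO2 in IMR32, from 50.2% to 38.4% with ASO2 and from 52.9% to 42.2% for ASO2 against ASO10 in SK-N-BE(2)c, and from 52.5% to 32.9% for the ASO2 difference between lines. For the ASO10 difference between lines it moved from 47.9% to 72.6% with TMM scaling. Replicate numbers were not shown to pair libraries: same-numbered libraries correlated at 0.055 to 0.318 for ASO1 and NCA in IMR32, where 6 of 8 libraries correlated best with their own number, and at -0.065 to 0.26 for the contrasts of 0 to 4 such libraries except ASO1 against ASO2 in IMR32 (-0.0039 to 0.332). With a replicate block, 9, 8 and 8 members were called in IMR32 (ASO1, ASO2, ASO1 against ASO2), 9, 8 and 9 in NGP and 6, 6 and 6 in SK-N-BE(2)c, and no such fit was made for the differences between lines. Depth limited H19, CDKN1C and PEG3 in SK-N-BE(2)c and MEG8 in NGP, where a library held few reads.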
